A study of Homo sapiens with 9 samples.

Results

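The p53 target genes described here are 30 genes from a list of symbols, of the 26485 genes in the deposited count table, and all 30 were measured and tested in all 9 libraries. They were grouped by function into cell cycle arrest and feedback (10 genes), cell death (11 genes), DNA repair (4 genes), and metabolism and secreted factors (5 genes). The study sequenced poly(A)-selected RNA of HEK293 cells, an established line of human embryonic kidney origin, with 3 libraries in each of 3 groups. WT cells carry UBE3D, KO cells had UBE3D knocked out with CRISPR/Cas9, and addback cells are knockout cells given UBE3D again; UBE3D is a ubiquitin ligase. All cells were grown in the same medium, and no agent that damages DNA is named in the labels. The labels do not say whether the knockout is 1 clone, which promoter drives the returned UBE3D, or whether a group's libraries stem from separate cultures. They mark every sample as pooled, so p-values here measure only the spread between libraries, which may be technical. In bulk RNA, fewer cells that express a gene and less RNA per cell cannot be told apart.

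p53 is a transcription factor that is held at a low level by the ubiquitin ligase MDM2 and is released after DNA damage and other stress. It binds response elements near its target genes, which stop the cell cycle, start cell death, repair DNA, adjust metabolism or, as MDM2 itself does, restrain p53 again. HEK293 cells carry adenoviral E1 genes, whose products bind p53 and the retinoblastoma proteins, so p53 protein is known to be abundant in these cells and limited in its activity. The measured quantity is RNA, not p53 activity.

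The sequences below are shown because they are the places near a transcription start where members carry the letters that p53 is known to bind. RefSeq promoter windows (build GRCh38.p14, 250 bases before to 50 bases after a start) were at hand for 25 of the 30 genes, in 38 windows. Each window was searched for a pair of 4-letter elements CNNG, in which each N is A or T, with 6 bases of any kind between them, which reads the same way on both strands. This core was found in 6 of 25 genes (24%), against 5.85% of the 27305 genes in the table, and in 15.8% of the members' windows against 4.79% of all 35116 windows of this length. The capitals mark the core, 5′ to 3′ on the gene's own strand.
SESN1: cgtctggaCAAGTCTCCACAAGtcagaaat
FAS: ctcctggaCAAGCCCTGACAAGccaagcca
TRIAP1: gggggaggCATGCACGGACATGaagcg
RPS27L: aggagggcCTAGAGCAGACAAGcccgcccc
AEN: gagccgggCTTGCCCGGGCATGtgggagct
GDF15: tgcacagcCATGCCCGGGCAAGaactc

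The printed stretches lie at chr6:109009013-109009042 (minus strand) for SESN1, chr10:88991304-88991333 (plus) for FAS, chr12:120446335-120446361 (minus) for TRIAP1, chr15:63157522-63157551 (minus) for RPS27L, chr15:88621301-88621330 (plus) for AEN and chr19:18386181-18386207 (plus) for GDF15. The first capital stands 46, 119, 66 and 31 bases before a RefSeq start in SESN1, FAS, RPS27L and AEN, and at base 32 of the transcript in TRIAP1 and GDF15. The cores of SESN1, FAS, RPS27L and AEN nevertheless lie within the annotated span of the gene. Those of FAS, RPS27L and AEN lie in an exon as counted. A search for the complete consensus p53 response element, which has 20 bases with at most 1 base between its equal parts, found 1 match among the members, in DDB2 (chr11:47214975-47215003, plus strand, from base 6 of the transcript), and 7 among all 35116 windows (0.0199%).
DDB2: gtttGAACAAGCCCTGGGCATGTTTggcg

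A match is a description of letters and not a site at which binding was measured, and a window with no match says nothing of elements elsewhere, such as in introns.

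Values are given as scaled CPM, counts set against library size, with library sizes scaled on 7498 genes in which stray reads make up little of the signal. This scaling matters because the WT and addback libraries held reads assigned to genes that are silent in kidney cells: 93.95% to 94.62% of 595 tissue-restricted genes had a count in them, against 14.62% to 17.65% in KO. If spread over all coding sequence, which is an assumption of the estimate, such reads would fill 2.767% to 14.587% of a WT or addback library and 0.0% of a KO library, and the 7498 genes, called low-background here, are those where this estimate is at most 10% of the mean CPM. Library totals ran from 23088295 to 37508780 counts. UBE3D (chromosome 6, 82892398-83065841, hg38) was at 19.5, 21.4 and 26.6 scaled CPM in WT libraries 1 to 3, at 13.2, 15.8 and 14.4 in KO, and at 3349, 3295 and 2745 in addback. UBE3D RNA thus remained in KO and stood far above the WT level in addback, with no overlap between groups (exact two-sided permutation p = 0.1 for each pair, the smallest that 3 against 3 libraries allow). A list of 10 HEK293 markers summed to 2338 to 2979 scaled CPM over the 9 libraries, but single markers went opposite ways. In WT, KO and addback the means were 837, 213 and 332 for IRS4 and 74.3, 32.8 and 74.7 for POU3F2. They were 649, 1347 and 953 for VIM, 459, 748 and 605 for KRT8, and 143, 226 and 183 for KRT18. PAX8, a defining kidney marker, had means of 0.079 in KO, 3.999 in WT and 4.02 in addback, of which the estimated background makes up 90.1% in WT and 90.2% in addback. Of the list of 10 markers of other cell types, 8 summed to 1.32 to 1.63 scaled CPM in KO, 18.4 to 108 in WT and 20.5 to 76.0 in addback, as the stray reads do. The remaining 2 of that list, HBB and COL1A1, made up most of its sum in KO (70.9 to 77.1 for all 10). The part of these markers in the results was not tested.

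The estimated background was small for most of the 30 genes. Its share of a gene's mean level ran from 0.17% in PMAIP1 to 36.1% in GDF15, with a median of 3.33%, and 26 of 30 genes lay at or under 10%. The 4 above it were TP53I3 (10.1%), SPATA18 (23.6%), PLK3 (26.0%) and GDF15 (36.1%). These shares are taken over all 9 libraries, and the estimate for KO was 0.0%. In WT alone the share also passed 10% in PLK2 (19.3%), EDA2R (16.8%), FAS (12.4%), BBC3 (10.7%) and FDXR (10.1%). For the 4 genes and for PLK2 the values after subtraction of the estimate are given beside the values as counted. Levels after subtraction keep the library sizes of the unsubtracted counts, while fits on subtracted counts scale the library sizes again.

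In KO against WT, 12 of the 30 genes rose, 3 fell and 15 did not pass the test (edgeR's quasi-likelihood test, adjusted p under 0.05 over all 21994 genes tested). Among low-background genes 23.3% were called higher and 26.3% lower, and among all tested genes 9.38% and 52.6%. The members' median log2 fold was 0.08, beside -0.02 over the low-background genes and -0.47 over all tested genes. Under TMM factors from all tested genes 18 rose and 1 fell, the median was 0.43 and 28 of 30 folds were above 0. The medians under those factors were 0.32 over low-background genes and -0.12 over all tested genes. The 12 that rose were 5 of 10 arrest and feedback genes and 7 of 11 death genes. By edgeR 0 of 4 repair genes and 0 of 5 metabolic genes rose, also at an unadjusted p under 0.05 and by DESeq2, while with TMM factors from all tested genes 3 repair genes and 1 metabolic gene did. The libraries of both groups did not overlap for 10 genes that were higher and 3 that were lower in KO, against 26.9% and 31.6% of low-background genes and 12% and 58.5% of all tested genes.

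In addback against KO, 25 of 30 genes rose and 0 fell, with library sizes scaled on low-background genes; with TMM factors from all tested genes 6 rose, 0 fell and 17 of 30 folds were above 0. The 6 were PLK3, EDA2R, FDXR, TP53I3, SPATA18 and GDF15, so the other 19 rises in addback against KO lost their call under that scaling. Among these 6, PLK3, TP53I3, SPATA18 and GDF15 were the members whose estimated background passed 10% of their mean level. EDA2R was at 9.91% and FDXR at 5.96%. Subtracting the estimate, with library sizes scaled again, ended the calls of SPATA18 (adjusted p = 0.0535) and GDF15 (0.497). PLK3 (0.0447), EDA2R (0.0121), FDXR (0.00224) and TP53I3 (0.00432) kept theirs. Subtraction together with TMM factors from all tested genes was not tested. As counted, with library sizes scaled on low-background genes, an unadjusted p under 0.05 was seen for 27 higher and 0 lower genes. DESeq2 called 28 higher and 0 lower. Among low-background genes 18.4% were called higher and 20% lower, and among all tested genes 49.2% and 7.62%. The median log2 fold of the members was 0.36, beside 0.00 for low-background genes and 0.45 for all tested genes. As counted, for 29 of 30 genes every addback library was higher than every KO library, against 27.4% of low-background genes and 60.6% of all tested genes. With the estimated background subtracted and library sizes not scaled again, the libraries of PLK2, PPM1D, POLH, SESN1 and TP53INP1 overlapped as those of CYFIP2 did. Subtraction at unchanged library sizes lowers addback and leaves KO as it was. The fits on subtracted counts, with library sizes scaled again, gave log2 folds of 0.01 in PLK2, 0.21 in PPM1D, 0.28 in POLH, 0.29 in SESN1 and 0.24 in TP53INP1. Their median over the members was 0.40. The scaling over all tested genes moved the median of the low-background genes by -0.30 in this comparison and by 0.34 in KO against WT.

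In addback against WT, 20 of 30 genes rose and 0 fell; 10.2% of low-background genes were called higher and 12.6% lower, and 4.37% and 4.89% of all tested genes. Unadjusted, 24 were higher and 0 lower, and DESeq2 called 22 higher and 0 lower. The members' median log2 fold was 0.51, beside -0.01 over low-background genes, and TMM factors from all tested genes gave 14 higher, 0 lower and a median of 0.55. Libraries did not overlap for 24 genes, all higher in addback, against 20.1% of low-background genes and 10.4% of all tested genes. With the replicate number as a block, a pairing that the libraries of this comparison showed, BTG2 (adjusted p = 0.00416, from 0.0592 without the block), FAS (0.0221, from 0.158) and GDF15 (0.0221, from 0.0701) also rose, and 23 genes were called. In the edgeR fit on background-subtracted counts, without the block, BTG2 was called (adjusted p = 0.0393) while FAS (0.0808) and GDF15 (0.241) were not. The estimate came to 100.7% of the WT level of GDF15. The 3 comparisons share libraries pairwise, so their counts are not independent of each other. As counted, the addback mean was the highest of the 3 group means in 29 of 30 members, CCNG1 being the exception, and in 26.4% of low-background genes. With the estimated background subtracted and library sizes not scaled again, PLK2 was also higher in KO (mean 37.4) than in addback (35.3). With library sizes scaled again its log2 fold in addback against KO was 0.01 ± 0.08.

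**Figure D1:**
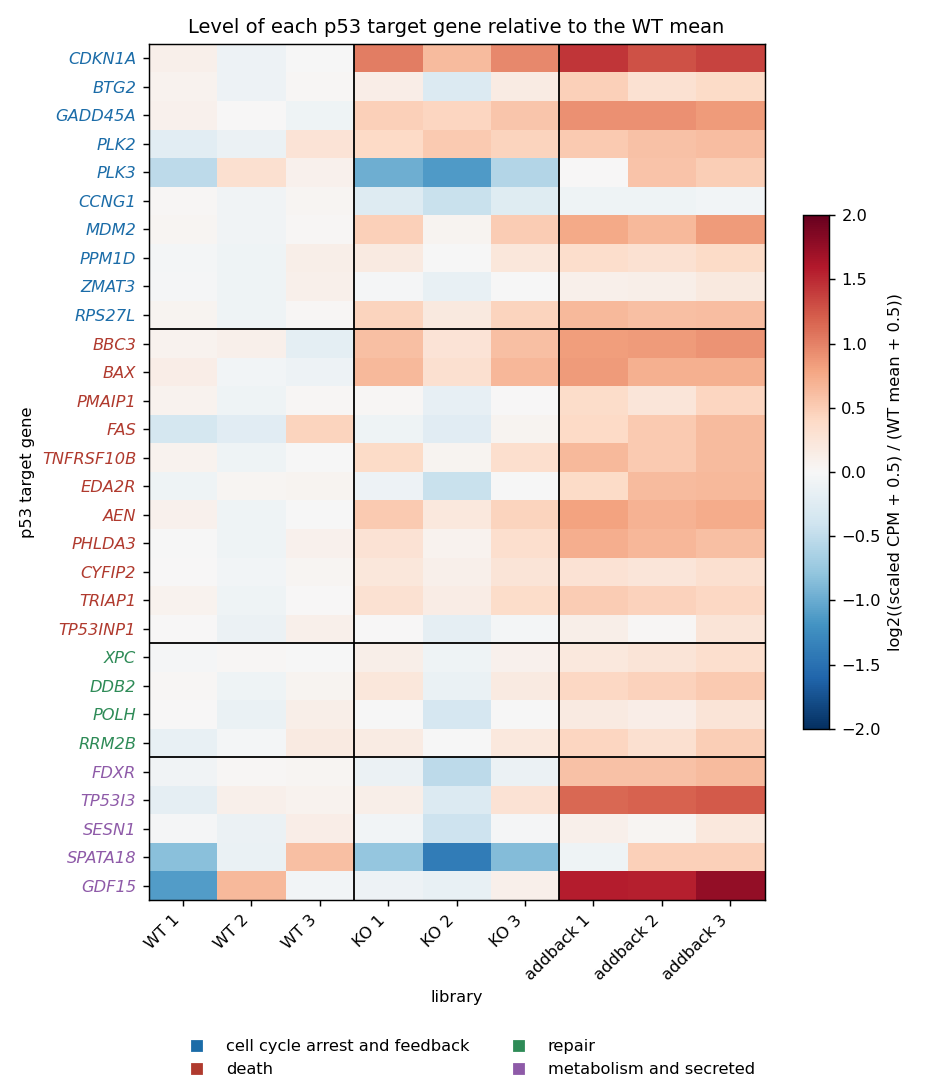
Level of each p53 target gene in each library relative to its WT mean, as log2 of (scaled CPM + 0.5) over (WT mean + 0.5), with rows as genes by function and columns as the 9 libraries. Red is above and blue below the WT mean; the addback columns are red in nearly every row, KO library 2 is paler or bluer than KO libraries 1 and 3, and the rows of PLK3, SPATA18 and GDF15 vary among the WT libraries.

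CDKN1A, which encodes the cyclin-dependent kinase inhibitor p21, had, as counted, the largest rise of the 30 genes in KO against WT. CDKN1A (chromosome 6, 36676460-36687339, plus strand) was at 126, 109 and 116 scaled CPM in WT libraries 1 to 3, at 237, 182 and 229 in KO, and at 317, 282 and 301 in addback. The 3 groups did not overlap. The log2 fold of CDKN1A came to 0.89 ± 0.10 in KO against WT (adjusted p = 0.000577), 0.47 ± 0.10 in addback against KO (0.00423), and for addback against WT 1.36 ± 0.10 (8.29e-05). The step from KO to addback lost its call with TMM factors from all tested genes (0.17, adjusted p = 0.355).

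MDM2, the ubiquitin ligase that restrains p53, was higher in KO than in WT and higher in addback than in KO. MDM2 (chromosome 12, 68808176-68850686, plus strand) was at 247, 229 and 244 scaled CPM in WT, 332, 249 and 343 in KO, and 408, 378 and 432 in addback. KO library 2 lay just above the highest WT library, while KO libraries 1 and 3 were well above it. The log2 folds were 0.36 ± 0.11 in KO against WT (adjusted p = 0.0181), 0.40 ± 0.11 in addback against KO (0.0132), and for addback against WT 0.76 ± 0.11 (0.00274). The first call was lost with the estimated background subtracted (0.31) or without KO library 1, KO library 3 or WT library 2, and the second with all 3 scalings over all tested genes.

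GADD45A, a stress sensor that slows the cell cycle, stepped up with little spread. GADD45A (chromosome 1, 67685061-67688338, plus strand) was at 48.8, 46.0 and 43.1 scaled CPM in WT, 64.4, 61.8 and 67.4 in KO, and 87.3, 87.3 and 83.3 in addback. Each group was clear of the next, with log2 folds of 0.49 ± 0.05 in KO against WT (adjusted p = 0.000533) and 0.41 ± 0.05 in addback against KO (0.00186). RPS27L, a ribosomal protein gene that p53 induces, was at 55.8, 50.9 and 54.8 scaled CPM in WT, 73.8, 61.6 and 73.3 in KO, and 84.9, 81.9 and 82.4 in addback. Its groups did not overlap either (log2 0.37 ± 0.07, adjusted p = 0.0025, and 0.25 ± 0.07, adjusted p = 0.0134). RPS27L has a close relative in RPS27, and the counting of reads shared by such genes is not stated in any source at hand.

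The polo-like kinases PLK2 and PLK3, which act in cell cycle checkpoints, differed from each other in KO. PLK2 (chromosome 5, 58453982-58460260, minus strand) was at 23.2, 25.0 and 33.0 scaled CPM in WT, 36.0, 39.0 and 37.1 in KO, and 39.1, 41.0 and 41.9 in addback. PLK2 rose in KO against WT by 0.47 ± 0.12 (adjusted p = 0.00785), while its fold in addback against KO was 0.12 ± 0.12 (adjusted p = 0.398). With the estimated background taken off, PLK2 had means of 21.8, 37.4 and 35.3 in WT, KO and addback, and KO and addback overlapped. The fits on subtracted counts, with library sizes scaled again, gave 0.70 ± 0.08 (adjusted p = 0.000787) and 0.01 ± 0.08 (0.926). PLK3 (chromosome 1, 44800225-44805990, plus strand) was at 9.09, 16.8 and 14.1 scaled CPM in WT, 6.51, 5.83 and 8.67 in KO, and 13.4, 20.01 and 18.9 in addback. All 3 KO libraries of PLK3 lay below WT, with a log2 fold of -0.93 ± 0.27 (adjusted p = 0.0153), a call lost without KO library 1, KO library 2 or WT library 2. With the estimated background taken off, PLK3 was at 7.41, 12.1 and 5.57 in WT, 6.51, 5.83 and 8.67 in KO, and 11.9, 13.3 and 12.2 in addback. The KO and WT libraries then overlapped, the fold was -0.33 ± 0.28 (adjusted p = 0.394), and the rise in addback against KO was 0.93 ± 0.28 (adjusted p = 0.0447; 1.32 ± 0.27, adjusted p = 0.00403, as counted).

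CCNG1, cyclin G1, which feeds back on p53 through MDM2, fell in KO against WT. CCNG1 (chromosome 5, 163437569-163446151, plus strand) was at 282, 264 and 283 scaled CPM in WT, 232, 203 and 233 in KO, and 261, 259.7 and 266 in addback. Every KO library was below every WT and addback library, and WT and addback overlapped. The log2 folds were -0.31 ± 0.05 in KO against WT (adjusted p = 0.00194), 0.24 ± 0.05 in addback against KO (0.00596), and for addback against WT -0.07 ± 0.05 (0.682). With TMM factors from all tested genes CCNG1 stood at 0.02 (adjusted p = 0.883) and -0.06 (0.666) in the first and second of these, with neither called.

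The remaining arrest and feedback genes rose in addback against KO and did not pass the test in KO against WT. BTG2, an antiproliferative partner of the deadenylase complex, was at 81.4, 72.0 and 78.1 scaled CPM in WT, 85.0, 63.7 and 86.8 in KO, and 107, 95.6 and 101 in addback, with a log2 fold of 0.37 ± 0.11 in addback against KO (adjusted p = 0.0187). PPM1D, the phosphatase WIP1 that switches off p53 signalling, had means of 57.5, 63.2 and 73.3 scaled CPM in WT, KO and addback (log2 0.21 ± 0.07 in addback against KO, adjusted p = 0.0343). ZMAT3, an RNA-binding zinc finger protein, had means of 46.8, 45.1 and 51.6 (0.20 ± 0.06, adjusted p = 0.0248). The rises of BTG2, PPM1D and ZMAT3 lost their call with all 3 scalings over all tested genes, and PPM1D lost it without any single library compared except KO library 3.

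**Figure D2:**
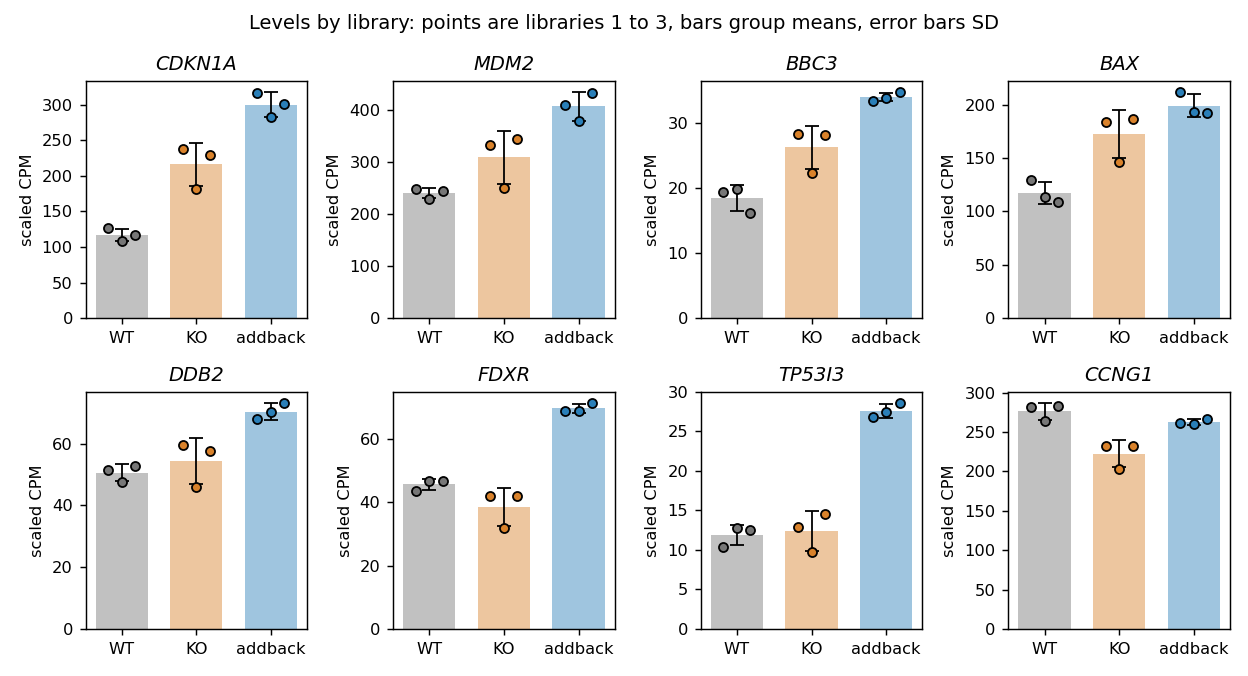
Scaled CPM of 8 p53 target genes in WT, KO and addback; points are the 3 libraries of a group, bars the means and error bars the SD, on axes that start at 0. CDKN1A, BBC3 and MDM2 step up from WT to KO to addback, FDXR and TP53I3 stand apart in addback alone, and CCNG1 is lowest in KO; the steps from KO to addback depend on the scaling, as the text gives.

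Of the 11 death genes, 7 rose in KO against WT, 8 from KO to addback and 9 from WT to addback. In each comparison 0 fell, also by DESeq2 and at an unadjusted p under 0.05. Among low-background genes 23.3%, 18.4% and 10.2% were called higher in these comparisons, and among all tested genes 9.38%, 49.2% and 4.37%. With TMM factors from all tested genes 7, 1 and 6 of the 11 rose. BBC3, which encodes PUMA, an activator of BAX, was at 19.4, 19.9 and 16.1 scaled CPM in WT, 28.3, 22.4 and 28.2 in KO, and 33.5, 33.9 and 34.8 in addback. The 3 groups of BBC3 (chromosome 19, 47220822-47232766, minus strand) did not overlap. The log2 folds were 0.51 ± 0.11 in KO against WT (adjusted p = 0.00458), 0.37 ± 0.11 in addback against KO (0.0191), and for addback against WT 0.88 ± 0.11 (0.00152). The second was lost with all 3 scalings over all tested genes, with the background subtracted (adjusted p = 0.0702), and without KO library 2, addback library 2 or addback library 3.

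BAX, the protein that opens the outer mitochondrial membrane, was higher in KO than in WT. BAX (chromosome 19, 48954815-48961798, plus strand) was at 129, 114 and 109 scaled CPM in WT, 184, 146 and 187 in KO, and 212, 193 and 193 in addback. BAX rose by 0.56 ± 0.10 on the log2 scale in KO against WT (adjusted p = 0.00207). The further difference in addback against KO, 0.21 ± 0.10, did not pass the test (adjusted p = 0.0991), although the libraries did not overlap. PMAIP1, which encodes NOXA and was the member with the highest level per kilobase, differed between addback and KO but not detectably between KO and WT. PMAIP1 was at 389, 350.1 and 379 scaled CPM in WT, 378, 331 and 375 in KO, and 482, 442 and 502 in addback. WT and KO overlapped (log2 -0.05 ± 0.07, adjusted p = 0.578) and every addback library was higher (0.39 ± 0.07 against KO, adjusted p = 0.00247).

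AEN, a nuclease of dying cells, was at 126, 112 and 119 scaled CPM in WT, 172, 138 and 161 in KO, and 209, 192 and 199 in addback. AEN (chromosome 15, 88621296-88632282, plus strand), 1 of the genes with a core element before a RefSeq start, had no overlap between groups. It rose by 0.40 ± 0.08 in KO against WT (adjusted p = 0.00268) and by 0.35 ± 0.08 in addback against KO (0.00543). PHLDA3, which competes with AKT for membrane lipids, was at 36.7, 34.7 and 38.9 in WT, 45.1, 38.8 and 46.3 in KO, and 61.2, 58.4 and 56.2 in addback. KO library 2 of PHLDA3 fell within the WT range, and the rise of 0.24 ± 0.08 (adjusted p = 0.0216) lost its call with the background subtracted or without KO library 1, KO library 3 or WT library 2. The rise in addback against KO was 0.43 ± 0.07 (adjusted p = 0.00254).

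TRIAP1, an inhibitor of caspase activation with a core element just after its start, had means of 52.8, 64.2 and 72.9 scaled CPM in WT, KO and addback and no overlap between groups. Its log2 folds were 0.28 ± 0.06 in KO against WT (adjusted p = 0.0052) and 0.18 ± 0.06 in addback against KO (0.0352), and the second was lost without any single library compared except KO library 3. CYFIP2, a subunit of the actin-regulating WAVE complex, rose in KO against WT from a mean of 227 to 259.9 scaled CPM (0.20 ± 0.05, adjusted p = 0.00653). Its fold in addback against KO was 0.09 ± 0.05 (adjusted p = 0.151). TP53INP1, which assists p53 in stress and autophagy, did not pass the test in any of the 3 comparisons, with means of 42.2, 40.3 and 46.5.

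The 3 death receptors among the members rose in addback against KO, and EDA2R alone kept that call with TMM factors from all tested genes. FAS (chromosome 10, 88990582-89015785, plus strand) was at 17.7, 19.2 and 31.1 scaled CPM in WT, 21.4, 19.4 and 23.5 in KO, and 30.03, 32.7 and 35.6 in addback. WT library 3 of FAS lay within the addback range, and WT and KO overlapped. The log2 fold of FAS was 0.61 ± 0.20 in addback against KO (adjusted p = 0.0256), or 0.58 with the background subtracted (adjusted p = 0.0595), and the call was lost without KO library 1, KO library 2, addback library 2 or addback library 3.

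TNFRSF10B, the TRAIL receptor DR5, was at 141, 126 and 134 scaled CPM in WT, 174, 138 and 169 in KO, and 209.6, 192 and 207 in addback. KO library 2 of TNFRSF10B was within the WT range and the other KO libraries were above it. It rose by 0.26 ± 0.08 in KO against WT (adjusted p = 0.0223, lost with the background subtracted or without KO library 1, KO library 3 or WT library 2) and by 0.34 ± 0.08 in addback against KO (0.00838). EDA2R, a receptor of the tumour necrosis factor family on chromosome X, was at 13.5, 14.7 and 15.0 in WT, 13.4, 10.5 and 14.4 in KO, and 18.9, 22.6 and 22.7 in addback. EDA2R differed little between WT and KO (-0.17 ± 0.14, adjusted p = 0.318) and rose in addback against KO by 0.75 ± 0.14 (adjusted p = 0.00326), a call that held under each scaling.

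The 4 repair genes were each called higher in addback against KO, as were 18.4% of low-background genes and 49.2% of all tested genes. In KO against WT 0 of 4 were called by edgeR or by DESeq2, also at an unadjusted edgeR p under 0.05. Among low-background genes 23.3% were called higher and 26.3% lower there. With TMM factors from all tested genes 0 of 4 were called in addback against KO and 3 of 4 were called higher in KO against WT. The median log2 fold of the 4 in KO against WT was 0.07 with the first scaling and 0.41 with the second. Over all low-background genes these medians were -0.02 and 0.32. DDB2, which recognises ultraviolet damage and holds the only complete consensus element among the members' windows, was at 51.5, 47.6 and 52.9 scaled CPM in WT, 59.7, 46.0 and 57.6 in KO, and 67.9, 70.1 and 73.2 in addback. KO libraries 1 and 3 of DDB2 were above the WT libraries and KO library 2 was below them. DDB2 (chromosome 11, 47214465-47239240, plus strand) rose by 0.37 ± 0.09 in addback against KO (adjusted p = 0.00873) and by 0.48 ± 0.09 in addback against WT (0.0123).

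XPC, the damage sensor of nucleotide excision repair, was at 92.2, 95.1 and 92.8 scaled CPM in WT, 101, 87.5 and 99.3 in KO, and 108, 112 and 119 in addback (0.23 ± 0.06 in addback against KO, adjusted p = 0.0088). RRM2B, a ribonucleotide reductase subunit that supplies nucleotides for repair, had means of 56.3, 61.5 and 75.1 (0.29 ± 0.09, adjusted p = 0.0261). POLH, the polymerase that copies past ultraviolet lesions, had means of 61.5, 56.9 and 70.1 (0.30 ± 0.10, adjusted p = 0.0256). RRM2B and POLH lost these calls without KO library 2 (adjusted p = 0.0953 and 0.0595) or addback library 3, and RRM2B also without KO library 1 or addback library 1.

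Of the 5 metabolic and secreted genes 4 rose in addback against KO, with a median log2 fold of 1.15 over the 5, and the same number did so with TMM factors from all tested genes. With library sizes scaled on low-background genes, 18.4% of low-background genes and 49.2% of all tested genes were called higher in this comparison. TP53I3, a quinone oxidoreductase also called PIG3, was at 10.4, 12.8 and 12.5 scaled CPM in WT, 13.0, 9.70 and 14.6 in KO, and 26.8, 27.5 and 28.6 in addback. WT and KO overlapped and every addback library was far above both. TP53I3 (chromosome 2, 24077433-24085861, minus strand) rose by 1.15 ± 0.16 in addback against KO (adjusted p = 0.00186) and by 1.22 ± 0.16 in addback against WT (0.00157). With the background subtracted these folds were 1.10 ± 0.15 (adjusted p = 0.00432) and 1.45 ± 0.15 (0.000525). No alternative run ended either call of TP53I3.

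FDXR, the ferredoxin reductase of mitochondria, was at 43.7, 46.7 and 46.7 scaled CPM in WT, 42.0, 31.7 and 42.0 in KO, and 68.9, 68.9 and 71.3 in addback. All KO libraries were below all WT libraries, but the log2 fold of -0.24 ± 0.10 did not pass the test (adjusted p = 0.0553). FDXR (chromosome 17, 74862497-74873031, minus strand) rose by 0.85 ± 0.10 in addback against KO (adjusted p = 0.00141) and by 0.61 ± 0.10 in addback against WT (0.00481), under every alternative run. SESN1, a sestrin that restrains growth signalling and has a core element before a start, was at 72.1, 67.4 and 80.9 in WT, 71.0, 55.1 and 72.1 in KO, and 79.3, 75.8 and 85.0 in addback. SESN1 did not pass the test in any comparison (adjusted p = 0.0533 in addback against KO).

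GDF15, a secreted hormone of the TGF-beta family, had the lowest scaled CPM of the 30 genes in every group, and the estimated background equalled its WT signal. GDF15 (chromosome 19, 18374731-18389176, plus strand) was at 0.808, 3.99 and 2.25 scaled CPM in WT, 2.15, 2.08 and 2.56 in KO, and 7.96, 7.87 and 9.18 in addback. The estimated background came to 100.7% of the WT level, 28.4% of the addback level and 0.0% of the KO level. With it subtracted, GDF15 was at 0.0103, 1.73 and 0 in WT, the same as counted in KO, and 7.22, 4.67 and 5.97 in addback. The fold in addback against KO was 1.88 ± 0.53 as counted (adjusted p = 0.015) and 1.48 ± 1.45 with the background subtracted (adjusted p = 0.497), although the libraries did not overlap in either form. As counted, that call was lost without KO library 1 or KO library 2. SPATA18, a mitochondrial quality control factor also called MIEAP, was at 7.07, 11.9 and 20.2 in WT, 7.44, 4.63 and 6.91 in KO, and 12.3, 18.4 and 18.5 in addback. WT libraries of SPATA18 spread across the range of both other groups. Its fall in KO against WT (-1.04 ± 0.37, adjusted p = 0.0363) became -0.56 ± 0.33 (0.215) with the background subtracted, and its rise in addback against KO (1.37 ± 0.37, adjusted p = 0.0132) became 1.03 ± 0.33 (0.0535). The fall was also lost without any single library compared except WT library 1, and the rise without KO library 2.

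**Figure D3:**
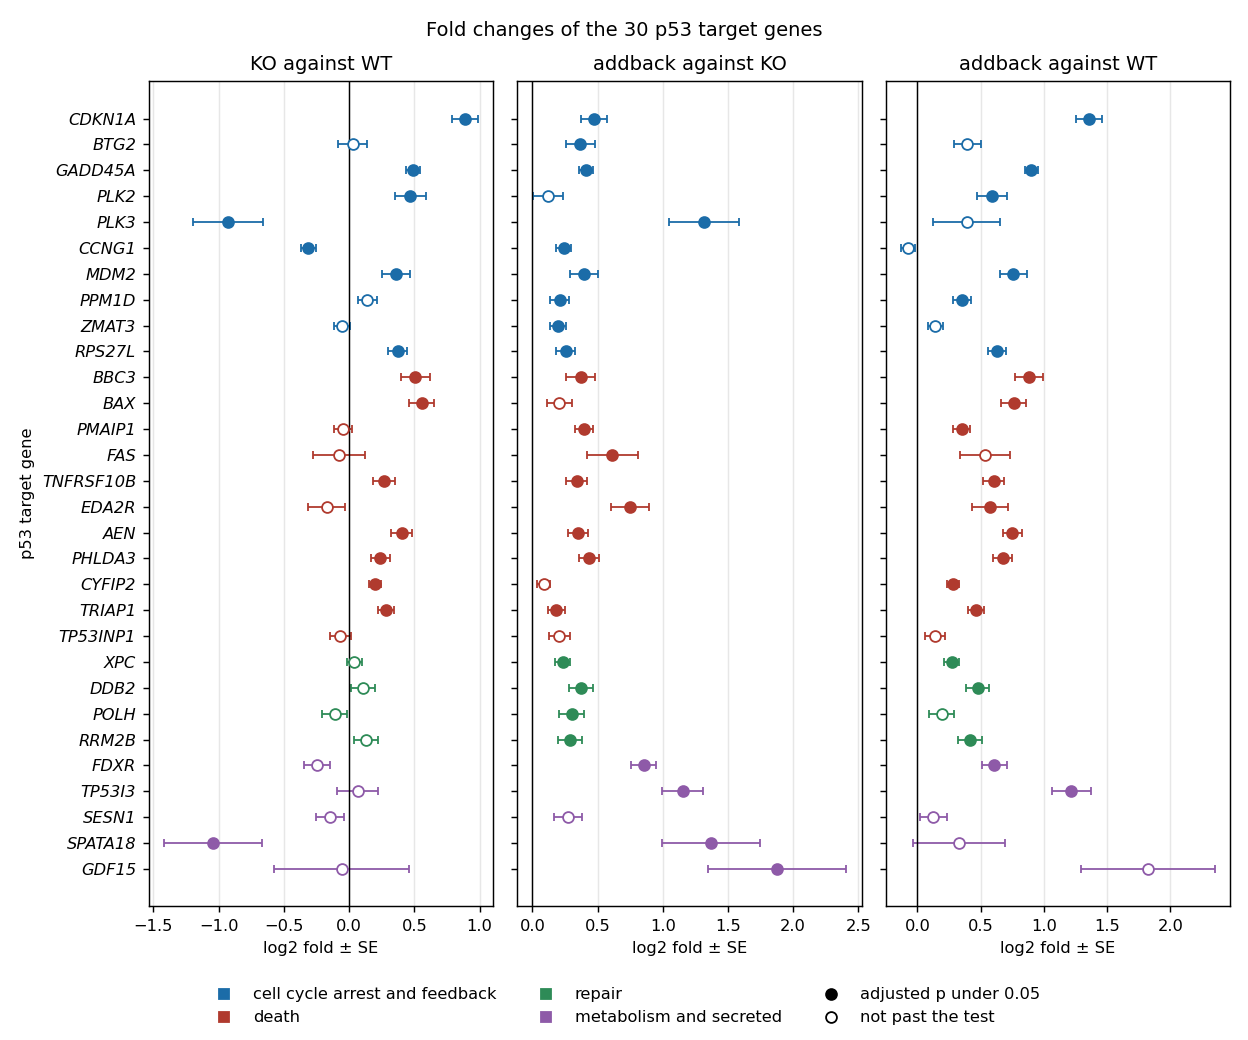
Log2 fold ± SE of the 30 genes in each of the 3 comparisons, with library sizes scaled on low-background genes; filled points have an adjusted p under 0.05. In addback against KO 25 points are filled and all lie above 0, while scaling over all tested genes leaves 6 called and 17 above 0; GDF15, SPATA18, PLK3 and TP53I3 lie farthest to the right and GDF15 and SPATA18 have the widest bars.

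**Figure D4:**
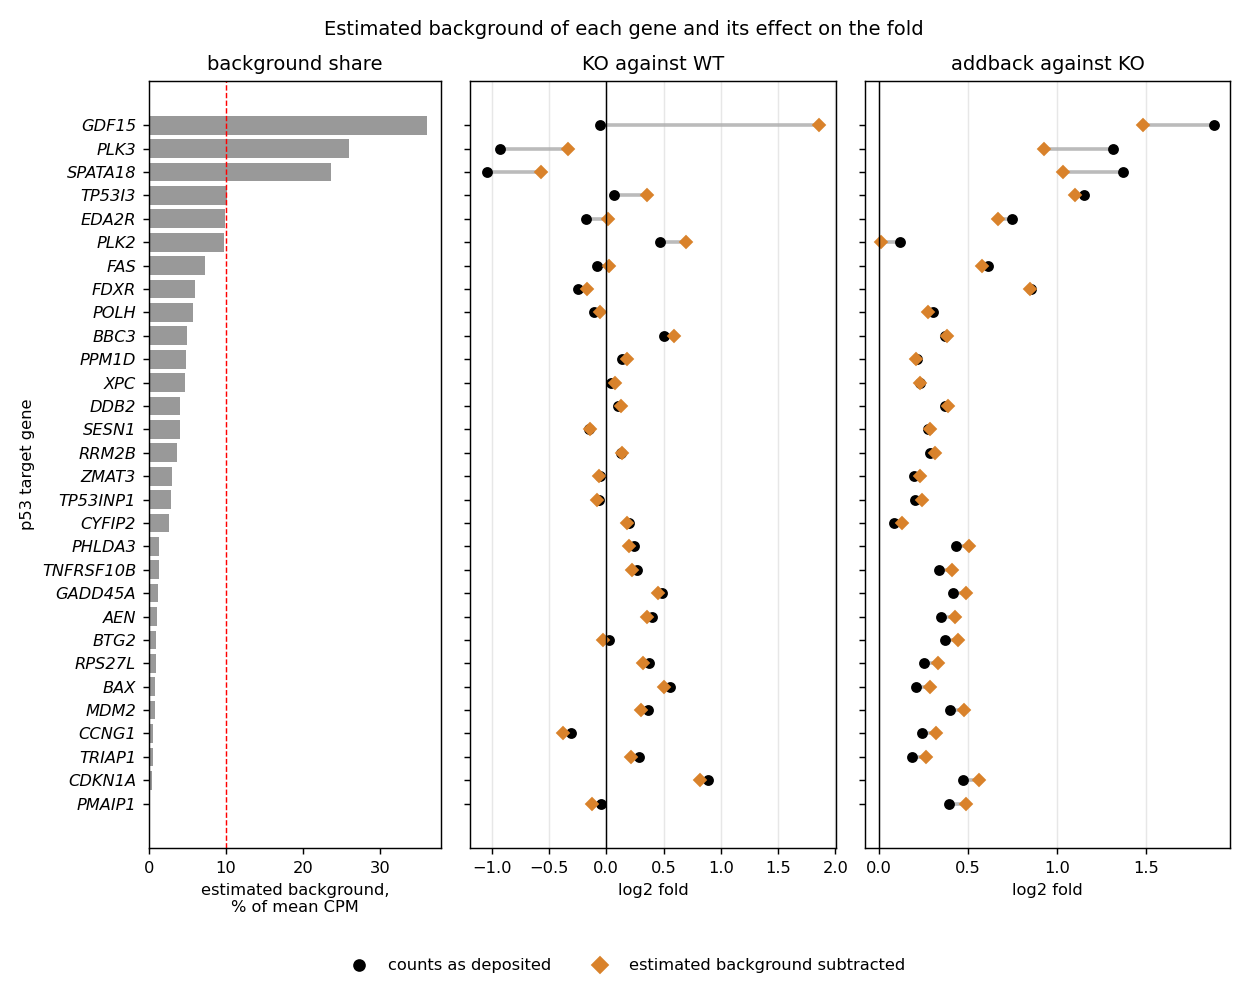
Left, the estimated background as a percent of each gene's mean CPM, with a dashed line at 10%; right, the log2 fold in KO against WT and in addback against KO from the counts as deposited (black) and with the estimate subtracted (orange). GDF15, PLK3 and SPATA18 move most, and GDF15 goes from -0.06 to 1.86 in KO against WT, with an adjusted p of 0.361 after subtraction.

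Subtracting the estimate changed the counts but did not turn the called direction of any member. KO against WT gave 9 higher and 1 lower (CCNG1), addback against KO 19 higher and 0 lower, and addback against WT 21 higher and 0 lower. Of the 12 genes called higher in KO as counted, 9 were still called: CDKN1A, GADD45A, PLK2, RPS27L, BBC3, BAX, AEN, CYFIP2 and TRIAP1.

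KO library 2 stood apart in these genes. It was the lowest of the 3 KO libraries for 29 of 30 members, the exception being PLK2, against 38.5% of low-background genes. Measured as the deviation from the group mean on a log2 scale, the members' median was -0.17 in KO library 2, 0.08 in KO library 1 and 0.10 in KO library 3, while the low-background genes' medians were 0.00 in all 3. The members' medians in the other groups lay between -0.08 and 0.05. PLK2 was lowest in KO library 1. Tissue-restricted genes held 506 counts in KO library 2, 491 in KO library 1 and 691 in KO library 3, at library totals of 26629086, 26314225 and 37508780.

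Without KO library 2, 16 genes in place of 25 were called higher in addback against KO, with a median of 0.25 in place of 0.36. The 16 were CDKN1A, BTG2, GADD45A, PLK3, CCNG1, MDM2, RPS27L, PMAIP1, TNFRSF10B, EDA2R, AEN, PHLDA3, XPC, DDB2, FDXR and TP53I3. In KO against WT, 14 were called higher and 1 lower (CCNG1) without it, with a median of 0.20, and PPM1D (0.21) and DDB2 (0.21) joined the called genes. What sets KO library 2 apart was not tested.

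**Figure D5:**
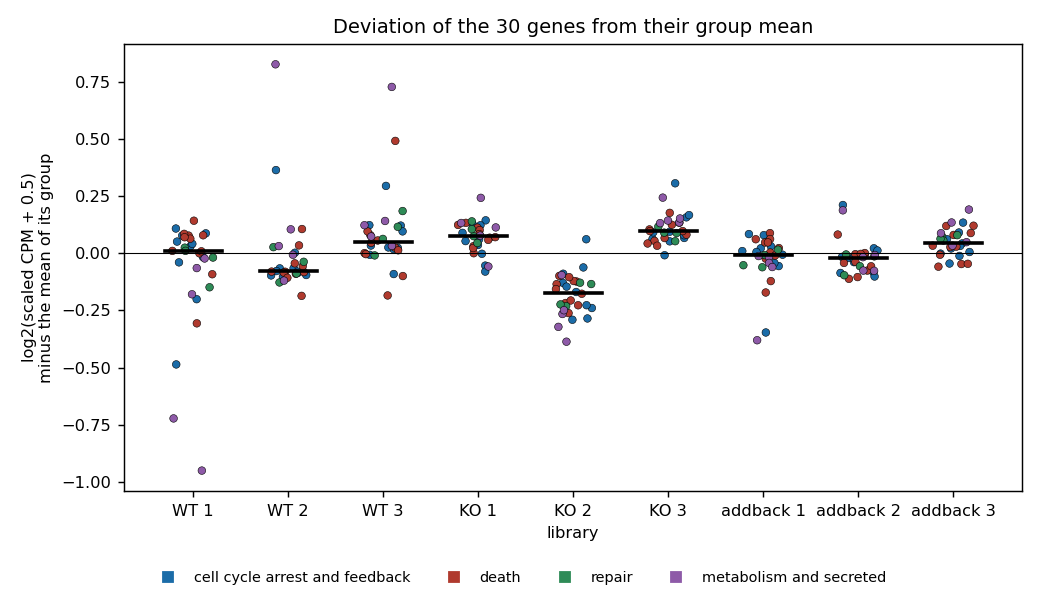
Deviation of each of the 30 genes from its group's mean, as log2(scaled CPM + 0.5), in each library; points are genes coloured by function and black bars the medians. The points of KO library 2 lie almost wholly below 0 with a median of -0.17, and the widest spread is in WT libraries 1 to 3, where GDF15 and SPATA18 reach from -0.95 to 0.83.

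Levels per kilobase of exon spanned a wide range within each function. They use the exon length given with the counts, not the length of the transcripts expressed, so the order between genes is approximate. In WT the mean level was highest for PMAIP1 (193 scaled CPM per kilobase), CCNG1 (112) and BAX (89.9), and lowest for GDF15 (1.96), SPATA18 (2.93) and EDA2R (4.01). The estimated background came to 100.7%, 32.6% and 16.8% of the WT levels of GDF15, SPATA18 and EDA2R. CDKN1A had 44.4 in WT, 82.0 in KO and 114 in addback, and so went from below TRIAP1 (44.7 in WT) to above CCNG1 (106 in addback). In the order of WT levels CDKN1A and TRIAP1 did not differ beyond their spread. MDM2, at 31.7, 40.7 and 53.7 per kilobase, stayed among the upper members in each group.

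Of 20 regulators of p53, which include MDM4 and the kinases ATM and ATR, 5 rose and 10 fell in KO against WT, 4 rose and 4 fell in addback against KO, and 3 rose and 3 fell in addback against WT; of all tested genes 52.6% fell in KO against WT, near the share of this list. Their median log2 folds were -0.20, 0.09 and -0.06, and 15 of the 20 are low-background genes, of which 5 rose and 7 fell in KO against WT. Of all low-background genes 23.3% rose and 26.3% fell in that comparison. Of all tested genes 49.2% rose and 7.62% fell in addback against KO, and 4.37% and 4.89% in addback against WT. With TMM factors from all tested genes the counts for the 20 were 6 and 2, 1 and 7, and 0 and 0. Those factors put the median over all low-background genes at 0.32, -0.30 and 0.02, and the shares of all genes called under them are not given here.

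A list of 34 other p53 targets was set beside the 30. In KO against WT 5 rose and 8 fell (median -0.14), in addback against KO 21 rose and 1 fell (median 0.23, beside 49.2% called higher and a median of 0.45 over all tested genes), and in addback against WT 13 rose and 2 fell (median 0.30). Of the 34, 20 are low-background genes, and of these 4 rose and 3 fell, 12 rose and 1 fell, and 11 rose and 1 fell in the same comparisons. Over all low-background genes the shares that rose and fell were 23.3% and 26.3%, 18.4% and 20%, and 10.2% and 12.6%. Over all tested genes they were 9.38% and 52.6%, 49.2% and 7.62%, and 4.37% and 4.89%. With TMM factors from all tested genes the counts for the 34 were 13 and 4, 8 and 2, and 6 and 0. Those factors put the median over all low-background genes at 0.32, -0.30 and 0.02, and the shares of all genes called under them are not given here. PERP, a membrane protein of cell junctions and cell death, was at 173, 175 and 170.1 scaled CPM in WT, 247, 289 and 252 in KO, and 214, 213 and 199 in addback. PERP was the 1 of the 34 that fell in addback against KO (-0.33 ± 0.06, adjusted p = 0.00271), after a rise of 0.60 ± 0.06 in KO against WT (0.000303). NINJ1, which ruptures the membrane of dying cells, fell in KO from a mean of 28.9 to 20.4 (-0.50 ± 0.09, adjusted p = 0.00179), a call lost with TMM factors from all tested genes. PIDD1, an assembly factor of a caspase complex, was at 44.0, 47.7 and 36.2 in WT, 41.9, 31.4 and 42.8 in KO, and 59.4, 62.6 and 61.1 in addback (0.66 ± 0.13 in addback against KO, adjusted p = 0.00346, a call lost with TMM factors from all tested genes and with the background subtracted).

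TRIM22 and PML had the largest folds in addback against KO among the low-background genes of that list that were called without overlap, and both are known to be induced by interferon as well as by p53. TRIM22 was at 1.92, 4.02 and 10.9 scaled CPM in WT, 0.481, 0.182 and 0.466 in KO, and 68.9, 48.3 and 103 in addback. PML, the scaffold of nuclear bodies, was at 46.5, 67.0 and 45.7 in WT, 50.2, 48.0 and 52.0 in KO, and 201, 166 and 210.1 in addback (1.94 ± 0.15 against KO, adjusted p = 0.000179). IFIT1, an interferon-induced gene chosen after its values were seen, was at 8.04, 8.32 and 13.4 in WT, 4.89, 4.08 and 4.17 in KO, and 818, 613 and 939 in addback. TRIM22, PML and IFIT1 rose in addback against KO by log2 folds of 7.56, 1.94 and 7.50, beside a median of 0.36 over the 30 members. In KO against WT TRIM22 (-3.82) and IFIT1 (-1.15) were called lower and PML (-0.09) was not called. The estimated background made up 71.3% and 36.8% of the WT levels of TRIM22 and IFIT1. TRIM22 counts as low-background through its addback level. With the estimate subtracted, WT was at 0.579, 0.224 and 4.03 for TRIM22 and at 6.80, 4.82 and 7.12 for IFIT1. Both then overlapped KO, and the call of TRIM22 in KO against WT was lost. Of the members, 12 of 30 were called higher in that comparison. The part of the interferon-induced genes' rise in the members' levels was not tested.

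Cell cycle genes that p53 is known to lower through p21 and the DREAM complex were compared as a list of 20. In KO against WT 7 rose and 5 fell (median 0.03), in addback against KO 3 rose and 11 fell (median -0.13), and in addback against WT 1 rose and 5 fell (median -0.08). All 20 are low-background genes, of which 23.3% and 26.3%, 18.4% and 20%, and 10.2% and 12.6% were called higher and lower in the same comparisons. With TMM factors from all tested genes 12 rose and 0 fell in KO against WT, and 0 rose and 14 fell in addback against KO, so the split in KO against WT depended on the scaling. Under those factors the median over all low-background genes was 0.32 and -0.30 in these comparisons. The shares of all genes called under them are not given here, so these counts are not read as a result about the 20 genes. With the background subtracted 7 fell in addback against KO, and with the replicate block 8 in place of 5 fell in addback against WT.

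The authors' deposited tables give their own folds, scaled over all genes. Scaling is not their only difference from the edgeR folds. Some adjusted p-values there are smaller than the fold over its error would give. SPATA18 in KO against WT had -0.44 ± 0.31 with an adjusted p of 0.044 in the authors' DESeq2 result. The sizes of the deposited folds are therefore not directly comparable with the edgeR folds above. In the authors' deposited table of KO against WT, 17 of the 30 genes were called higher and 2 lower (adjusted p under 0.05), with a median log2 fold of 0.30; 53.9% of low-background genes were called higher there and 5.99% lower, and 21.1% and 41.2% of all genes with an adjusted p. In the authors' deposited table of addback against KO, 6 were called higher and 1 lower (CYFIP2, -0.17), with a median of 0.08, against 3.13% of low-background genes higher and 61% lower, and 39.8% and 22.2% of all genes. CDKN1A had 1.11 and 0.17 in the authors' deposited tables for these comparisons, and TP53I3 had 0.26 and 0.81.

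The series also concerns RNA that runs on past the end of genes, and the authors' deposited region tables hold a region downstream of 5 of the 30 genes: PHLDA3, BTG2, RPS27L, FAS and CCNG1. In the authors' deposited region table of KO against WT, the regions of BTG2 (chr1:203309602-203321401, log2 0.75 ± 0.20, adjusted p = 0.000665), PHLDA3 (chr1:201452285-201464284, 0.64 ± 0.23, 0.0111) and RPS27L (chr15:63142065-63153340, 0.55 ± 0.20, 0.0127) were called higher, where 24.8% of 2541 regions were called higher and 25% lower. The region of FAS was at -0.01 (adjusted p = 1) in the authors' deposited region table, and that of CCNG1 had a base mean of 0.295 and was not called. In the authors' deposited region table of addback against KO 0 of the 5 were called, where 18.6% were higher and 15.5% lower. The RPS27L region lies within the span of the gene as annotated, and both region tables hold no values by library, so no further test was made.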

How the data were processed

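Whole-number counts per gene, not normalized, for 26485 genes were taken from the authors' deposited table; each of its rows names a gene. Per the submitters' processing notes, cutadapt 1.8.1, STAR 2.5.2b and DESeq2 were used on hg38; no source at hand names the counting program or annotation. The authors' deposited comparison tables give base means (a signal averaged over libraries), log2 folds with standard errors, p-values and adjusted p-values, and, for regions in 1 comparison, a test score. Count columns headed KO.U were taken as addback, because a deposited comparison names that group as KO with UBE3D. The number of per-sample columns left unused was 0. Totals ran from 23088295 to 37508780 counts per library.

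Symbols were matched to GENCODE 29, 23861 directly and 24 through another symbol (COP1 is listed as RFWD2), and 18602 genes had a coding length. A library's background was the median, over tissue-restricted genes (581 of 595 with a coding length), of counts per coding kilobase, multiplied by each gene's coding length. Low-background genes (7498 of those tested) have an estimate of at most 10% of the mean CPM and coding sequence of at least 10% of exon length; 25 of the 30 members meet both criteria, and ZMAT3 misses only the second. The test was edgeR 4.0.16 (R 4.3.3): filterByExpr left 21994 genes, TMM factors came from low-background genes, and a robust quasi-likelihood model had group as its only term over all 9 libraries. Calls are at a Benjamini-Hochberg adjusted p under 0.05 over all genes tested, and an error beside a log2 fold is a standard error. The scripts were tested on simulated data.

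The members and all lists were chosen with earlier results of these data known. Named were all 30 members and, from the other lists, the 3 low-background genes with the largest absolute fold, called and without overlap, in each comparison with KO: TRIM22, PERP and NINJ1 in KO against WT, and TRIM22, PML and PIDD1 in addback against KO. TRIM22 met the 10% limit, at 9.98% of its mean over all 9 libraries, through its addback level (mean 73.4 scaled CPM). In WT the estimate was 71.3% of its level, so its place in KO against WT is not that of a gene with little background there. UBE3D and the markers were named as checks. A further gene that the rule names is not reported here.

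Pairing was checked by correlating gene residuals of same-numbered libraries. In addback against WT these were 0.894, 0.6 and 0.741 over all genes and 0.571, 0.289 and 0.635 over low-background genes. The block is therefore given there, and the pairing comes from the data, since the labels give only numbers. The background of libraries 1 to 3 was 25.6, 84.6 and 97.7 counts per coding kilobase in WT and 22.4, 106.9 and 102.6 in addback. Its part in the pairing was not tested. Between libraries of a group, chi-square per degree of freedom was 1.99 to 44.6, so none was a duplicate. Alternatives were TMM, upper quartile and DESeq2 1.42.0 size factors from all tested genes, the DESeq2 test, no filter, low-background genes alone, the background subtracted once or 2 times, other background limits, only the groups compared, each library left out, and the replicate block. Promoter windows are from RefSeq, build GRCh38.p14.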

Additional observations from a re-analysis of the deposited data

How the results depend on the processing

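Genes called higher in addback against KO, 25 as reported, were 6 with TMM factors from all tested genes, 12 with upper quartile factors, 6 with DESeq2 size factors, 16 with 2 times the background subtracted, and 16 to 26 without each library in turn (16 without KO library 2 and 18 without addback library 3). Genes called lower in KO against WT, 3 as reported, were 1 with TMM factors from all tested genes, 1 with DESeq2 size factors, 1 with the background subtracted, 1 with 2 times the background subtracted, and 1 to 3 without each library in turn (1 without KO library 2 and 1 without WT library 2). The share called higher among those called in KO against WT, 80% as reported, was 94.7% with TMM factors and 94.4% with DESeq2 size factors from all tested genes, 90% with the background subtracted, 75% with the DESeq2 test, 73.3% with a background limit of 5% and 72.2% with the replicate block. Genes called higher in KO against WT numbered 9 to 14 and in addback against WT 16 to 19 without each library in turn. Under every alternative, DESeq2's test included, 0 genes were called lower in addback against KO or addback against WT.

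With TMM factors from all tested genes, log2 folds that changed sign in KO against WT were CCNG1 0.022, ZMAT3 0.29, PMAIP1 0.29, FAS 0.28, EDA2R 0.17, TP53INP1 0.27, POLH 0.22, FDXR 0.095, SESN1 0.19, GDF15 0.34, PML 0.26 and PIDD1 0.19, and in addback against KO PLK2 -0.19, CCNG1 -0.065, PPM1D -0.091, ZMAT3 -0.11, RPS27L -0.047, BAX -0.090, CYFIP2 -0.22, TRIAP1 -0.12, TP53INP1 -0.10, XPC -0.074, POLH -0.0022, RRM2B -0.015, SESN1 -0.029 and NINJ1 -0.18. With DESeq2 size factors they were, in KO against WT, ZMAT3 0.20, PMAIP1 0.21, FAS 0.19, EDA2R 0.083, TP53INP1 0.19, POLH 0.14, FDXR 0.010, SESN1 0.10, GDF15 0.23, PML 0.17 and PIDD1 0.11, and in addback against KO PLK2 -0.15, CCNG1 -0.025, PPM1D -0.052, ZMAT3 -0.071, RPS27L -0.0084, BAX -0.052, CYFIP2 -0.18, TRIAP1 -0.079, TP53INP1 -0.061, XPC -0.034 and NINJ1 -0.14. With upper quartile factors they were, in KO against WT, ZMAT3 0.074, PMAIP1 0.079, FAS 0.059, TP53INP1 0.059, POLH 0.015, GDF15 0.085 and PML 0.037, and in addback against KO PLK2 -0.0090 and CYFIP2 -0.042.

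With the estimated background subtracted, the folds that changed sign in KO against WT were BTG2 -0.030, FAS 0.027, EDA2R 0.016, GDF15 1.86, PML 0.12 and PIDD1 0.044. With 2 times the background subtracted they were BTG2 -0.10, PLK3 0.56, FAS 0.14, EDA2R 0.27, SPATA18 0.29, GDF15 8.96, TRIM22 6.41, PML 0.42 and PIDD1 0.29, and in addback against KO PLK2 -0.13; GDF15 and TRIM22 then had WT at 0, so those folds depend on the prior count and are no bound; the call of GDF15 as higher in KO under that setting (adjusted p = 0.00421) rests on those zeros. With a background limit of 5% BTG2 was at -0.024 and XPC at -0.013 in KO against WT. Without each library in turn, the folds in KO against WT that changed sign ranged over BTG2 (-0.053 to 0.16), PMAIP1 (-0.084 to 0.014), FAS (-0.21 to 0.22), TP53I3 (-0.069 to 0.21), GDF15 (-0.45 to 0.58) and PML (-0.18 to 0.12).

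In both comparisons with KO not every same-number correlation passed 0.1, so the block is given only here: they were -0.051 to 0.019 over all genes, and over low-background genes 0.061, 0.013 and 0.072 in KO against WT and 0.018, 0.096 and 0.192 in addback against KO. For the members, the median deviation from the group mean was -0.17, -0.02 and -0.08 in library 2 of KO, addback and WT, and 0.10, 0.05 and 0.05 in library 3. With the replicate block, 13 genes were called higher and 5 lower in KO against WT, 29 higher in addback against KO (added were PPM1D, FDXR and SESN1 in the first and BAX, CYFIP2, SESN1 and TP53INP1 in the second), and the GDF15 fold in the first of these was 0.071. For addback against WT the block gave 23 in place of 20, the added genes being BTG2, FAS and GDF15, and changed no other call of a member. For changes without a stated construction the cause was not tested. The estimated background, at 100.7% of the WT level, limits what can be said of GDF15.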
